A study of Mus musculus with 6 samples.

Results

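Autophagy genes were read in CD144-enriched cells of ischemic mouse muscle, the fraction held by magnetic beads against VE-cadherin, a surface protein of endothelial cells (ECs). The list held 34 genes of the 47729 in the count files, and all 34 were found by symbol. It was proposed because Rb1cc1 was highest in the knockout given the control vector and lowest in the knockout given human LEENE, so the values of Rb1cc1 chose the list and are described here without a test. The other 33 genes were listed by their known role. All mice were C57BL/6J, were put on a high-fat, high-sucrose diet at 8 weeks of age for 16 weeks, and then had hind limb ischemia by ligation of the femoral artery on day 0. WT + GFP were wild-type mice injected in the muscle with an adenovirus for green fluorescent protein, KO + GFP were Leene-knockout mice given that same vector, and KO + LEENE were Leene-knockout mice given an adenovirus for GFP-tagged human LEENE. The knockout is a germline deletion made with CRISPR/Cas9, present in every cell type, and the vectors were injected into the muscle as a whole. Injections were on days 1 and 4 by the labels and on days 1 and 5 by the study's methods, with harvest after 1 week. Each group had 2 libraries. How many mice went into a library is not given in the sources used here.

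Autophagy wraps cytoplasm in a double membrane and delivers it to the lysosome. The ULK1 kinase complex, held together by the scaffold FIP200 (Rb1cc1), starts the process, and a class III phosphatidylinositol 3-kinase (PI3K) complex then makes the lipid PI3P on the growing membrane. A pair of ubiquitin-like conjugation systems attach ATG8 proteins (the LC3 and GABARAP families) to that membrane, and cargo receptors such as p62 (Sqstm1) tie the cargo to ATG8. In ECs, autophagy is known for its part in the responses to starvation, shear stress and low oxygen.

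The libraries held from 1770992 to 5602603 reads assigned to genes, so reads are given with CPM, the counts scaled to the same total in each library. Mitochondrially encoded genes took 50.1% and 50.9% of the reads in WT + GFP and from 33.6% to 34.3% in the other libraries. Cdh5, which encodes the CD144 used to enrich the cells, had 5 and 18 reads in KO + LEENE against from 196 to 332 in the other libraries. Other endothelial markers did not follow it: Pecam1 had 211 and 175, 140 and 89, and 95 and 110 reads, and Vwf had 81 and 53, 158 and 92, and 317 and 340. The 2 libraries of a group shared 1 facility sample number in the file headers, 3 numbers for 6 libraries. Outside the 20 most abundant genes, their chi-square per degree of freedom over genes with at least 20 reads in the pair ran from 1.18 to 1.37, where counting noise alone gives 1. The SDs and P values below therefore measure the spread between libraries that may be technical, and they may compare libraries rather than mice. Genes that every cell uses also differed between the groups: of 19 found, 15 were tested, of which 9 were higher and 5 lower in KO + GFP than WT + GFP, where 34.2% of all genes tested were higher and 35.9% lower. In KO + LEENE against KO + GFP, 2 of them were higher and 12 lower, where 32.8% of all genes tested were higher and 34.9% lower. Ywhaz, a 14-3-3 adaptor, had 30 and 42 reads for WT + GFP, 22574 and 14811 for KO + GFP, against 11 and 15 for KO + LEENE, and B2m, a subunit of MHC class I, had 87 and 50, 6412 and 4161, and 4 and 3. The highest count of Gapdh was 9 reads and that of Pgk1 3. Differences of this size in such genes put the counts themselves in doubt, and this was not tested. All reads are given as deposited, and whether what moved these genes also moved the autophagy genes was not tested either.

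**Figure D1:**
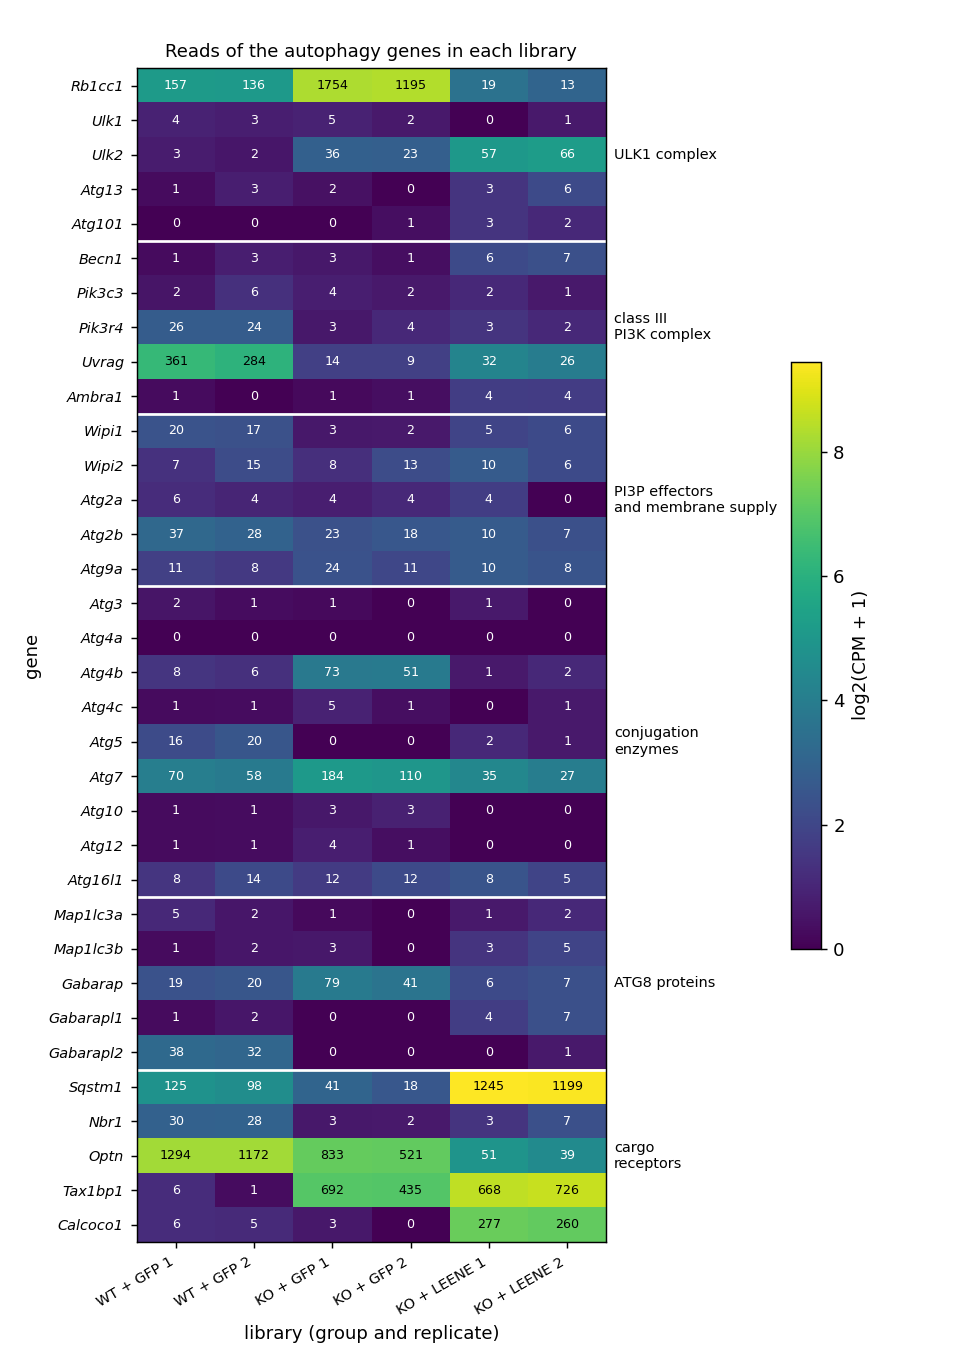
Reads of all 34 autophagy genes (rows, grouped by step) in each of the 6 libraries (columns, by group and replicate), with the number of reads in each cell and log2(CPM + 1) as its color. The cells of a group look alike, and 15 genes, the 14 that were not tested and Becn1, stay at or under 7 reads in all libraries.

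Much of the core machinery was read at very low counts. Of the 34 genes, 15 had under 10 reads in every library, and 14 were left out by the filter on low counts, with at most 7 reads in a library. These 14 were Ulk1, Atg13 and Atg101 of the ULK1 complex, Pik3c3 and Ambra1 of the PI3K step, Atg2a, the conjugation genes Atg3, Atg4a, Atg4c, Atg10 and Atg12, and the ATG8 genes Map1lc3a, Map1lc3b and Gabarapl1. Pik3c3 encodes the lipid kinase itself, and Map1lc3b encodes LC3B, the usual marker of autophagosomes. Map1lc3b had 1 and 2 reads for WT + GFP, 3 and 0 for KO + GFP, against 3 and 5 for KO + LEENE, and Pik3c3 had 2 and 6, 4 and 2, and 2 and 1. Differences in Map1lc3b and Pik3c3 were not detectable at this depth. With no filter on low counts, 2 of the 14 were called higher in KO + LEENE. Gabarapl1 had 1 and 2, 0 and 0, and 4 and 7 reads (adjusted P = 0.000463 against KO + GFP and 0.0237 against WT + GFP, edgeR with no filter), and Ambra1 had 1 and 0, 1 and 1, and 4 and 4 (0.0202 against WT + GFP, edgeR with no filter). DESeq2 called the first of these 3 differences (adjusted P = 0.0423) and gave no adjusted P for the others. Atg4a, a protease that trims ATG8, had 0 reads in each library. A count of 0 allows up to 3 reads, or 0.536 CPM in the deepest library and 1.69 CPM in the shallowest. The 20 genes that passed had to be read in at least 1 group, so they do not stand for all 34. They had a median exon length of 6920 bases against 3253 for the 14 left out, and the same order held for protein-coding genes in general, at 5119 bases for the 6923 tested and 2403 for the 14313 not tested.

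The genes at the first step, the ULK1 complex, differed in order between the groups. Rb1cc1 (ENSMUSG00000025907, chromosome 1, 6206197 to 6276648, GRCm38) had 157 and 136 reads for WT + GFP, 1754 and 1195 for KO + GFP, against 19 and 13 for KO + LEENE. In CPM these were 33.8 ± 1.18 (SD, n = 2), 321 ± 11.7 and 8.99 ± 2.45. As a description, its log2 fold change was 3.72 in KO + GFP against WT + GFP, -6.30 in KO + LEENE against KO + GFP and -2.57 in KO + LEENE against WT + GFP. Its groups stood apart, as the choice of the list required. Ulk2, a kinase of the same complex (ENSMUSG00000004798, chromosome 11, 61775649 to 61855073), had another order. Ulk2 had 3 and 2 reads for WT + GFP, 36 and 23 for KO + GFP, against 57 and 66 for KO + LEENE, which is 0.573 ± 0.125, 6.38 ± 0.0576 and 34.5 ± 3.29 CPM (SD, n = 2). Its highest libraries were those of KO + LEENE, where Rb1cc1 was lowest. Ulk2 was higher in KO + GFP than WT + GFP by 3.88 ± 0.512 (log2, SE, adjusted P = 2.11e-13, edgeR) and higher in KO + LEENE than KO + GFP by 1.27 ± 0.252 (adjusted P = 1.10e-06, edgeR), or 2.43 with library size only as the scale. In bulk samples, fewer cells of a type and less RNA per cell cannot be told apart.

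**Figure D2:**
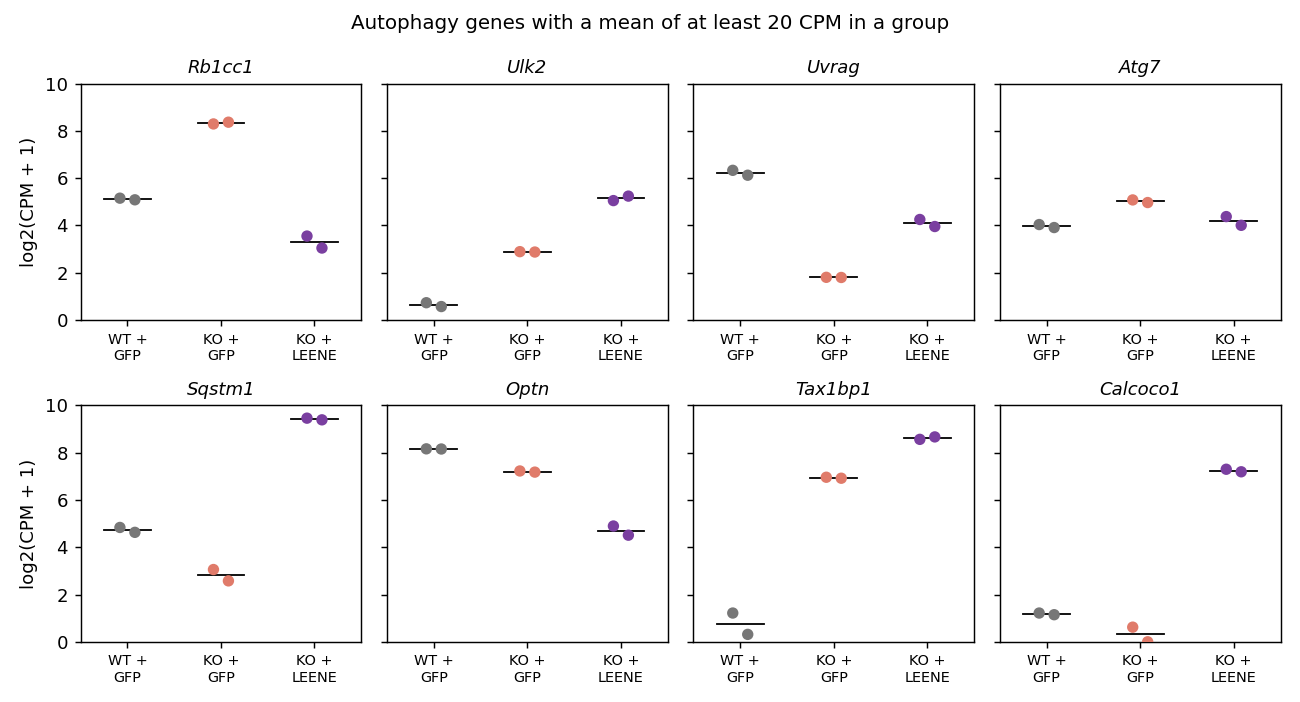
Level of the 8 autophagy genes with a mean of at least 20 CPM in a group, as log2(CPM + 1), with 1 point per library and a line at the mean of the 2 libraries of WT + GFP (gray), KO + GFP (red) and KO + LEENE (purple). Rb1cc1 and Atg7 are highest in KO + GFP, Uvrag and Optn in WT + GFP, and Ulk2, Sqstm1, Tax1bp1 and Calcoco1 in KO + LEENE.

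RefSeq gave a window of 250 bases before to 50 after a start (GRCm38.p6) for 28 of the 34 genes, 32 windows in all. The windows of Ulk2 and of the cargo receptor Tax1bp1 are shown. They were chosen because, of the 8 genes given in full, these were lowest in WT + GFP and highest in KO + LEENE, and because each window held the letters TGACNNNGC, the core of the antioxidant response element, searched on both strands and shown in capitals. The upstream window of Tax1bp1 did not hold these letters. Among genes with fewer reads that had this order of mean CPM, with or without TMM scaling, the window of Map1lc3b held them and those of Ambra1, Atg101 and Atg9a did not. They are printed 5′ to 3′ on the strand of the gene, Ulk2 at chr11:61855043-61855342 (minus strand) and Tax1bp1, the downstream of its 2 windows, at chr6:52713915-52714214 (plus strand).
Ulk2: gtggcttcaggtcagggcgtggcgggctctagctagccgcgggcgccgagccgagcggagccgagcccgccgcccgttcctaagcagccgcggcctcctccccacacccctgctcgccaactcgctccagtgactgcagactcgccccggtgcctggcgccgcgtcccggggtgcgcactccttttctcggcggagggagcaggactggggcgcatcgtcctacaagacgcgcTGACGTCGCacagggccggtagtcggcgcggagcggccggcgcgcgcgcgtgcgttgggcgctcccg
Tax1bp1: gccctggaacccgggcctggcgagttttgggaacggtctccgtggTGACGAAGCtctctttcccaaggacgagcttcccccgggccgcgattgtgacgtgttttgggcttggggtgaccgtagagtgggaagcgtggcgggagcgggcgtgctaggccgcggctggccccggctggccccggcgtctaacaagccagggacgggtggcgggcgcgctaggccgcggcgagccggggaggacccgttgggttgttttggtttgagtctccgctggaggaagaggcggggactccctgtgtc
The letters TGACNNNGC stood in 4 of the 32 windows (12.5%), those of Atg13 and Map1lc3b being the others, and in 12.4% of all 32851 windows. The E-box CACGTG, which TFEB and related factors read, stood in 3 of the 32 (9.38%), those of Atg3, Atg5 and Atg7, and in 7.15% of all, and its longer form TCACGTGA, which overlaps it, stood in 1 (Atg3) and in 0.974% of all. The windows of Sqstm1, Calcoco1 and Optn held none of these letters. A match is a description of the sequence, and the counts, which come from a 3′ kit, do not locate starts.

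Each comparison was then counted over the members, with Rb1cc1 left out. In KO + GFP against WT + GFP, 14 of 19 genes tested (73.7%) were called at an adjusted P under 0.05, 6 higher and 8 lower, where 70.1% of all 8903 genes tested were called. Their median log2 fold change was -0.27, beside -0.09 over all genes. In KO + LEENE against KO + GFP, 11 of 19 (57.9%) were called, 6 higher and 5 lower, where 67.8% of all genes were, and the median was 0.53 beside -0.01. In KO + LEENE against WT + GFP, 13 of 19 (68.4%) were called, 5 higher and 8 lower, where 70.7% of all genes were, and the median was -0.96 beside -0.11. Since the list came from these same contrasts, nothing is read from these shares. The first and the second comparison share the KO + GFP libraries. Scaling by library size only, in place of TMM (a scaling that sets most genes level), moved the median over all genes to -0.57, 1.07 and 0.50 in the 3 comparisons, so each fold change given here is relative to a scale that can shift by that much. With library size only the calls were 5 higher and 10 lower, 9 higher and 4 lower, and 6 higher and 6 lower in these comparisons. The libraries of the groups compared did not overlap for 16 (84.2%), 16 (84.2%) and 17 (89.5%) of the 19 members in these comparisons, where the same held for 82.2%, 80.3% and 83.6% of all genes tested.

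**Figure D3:**
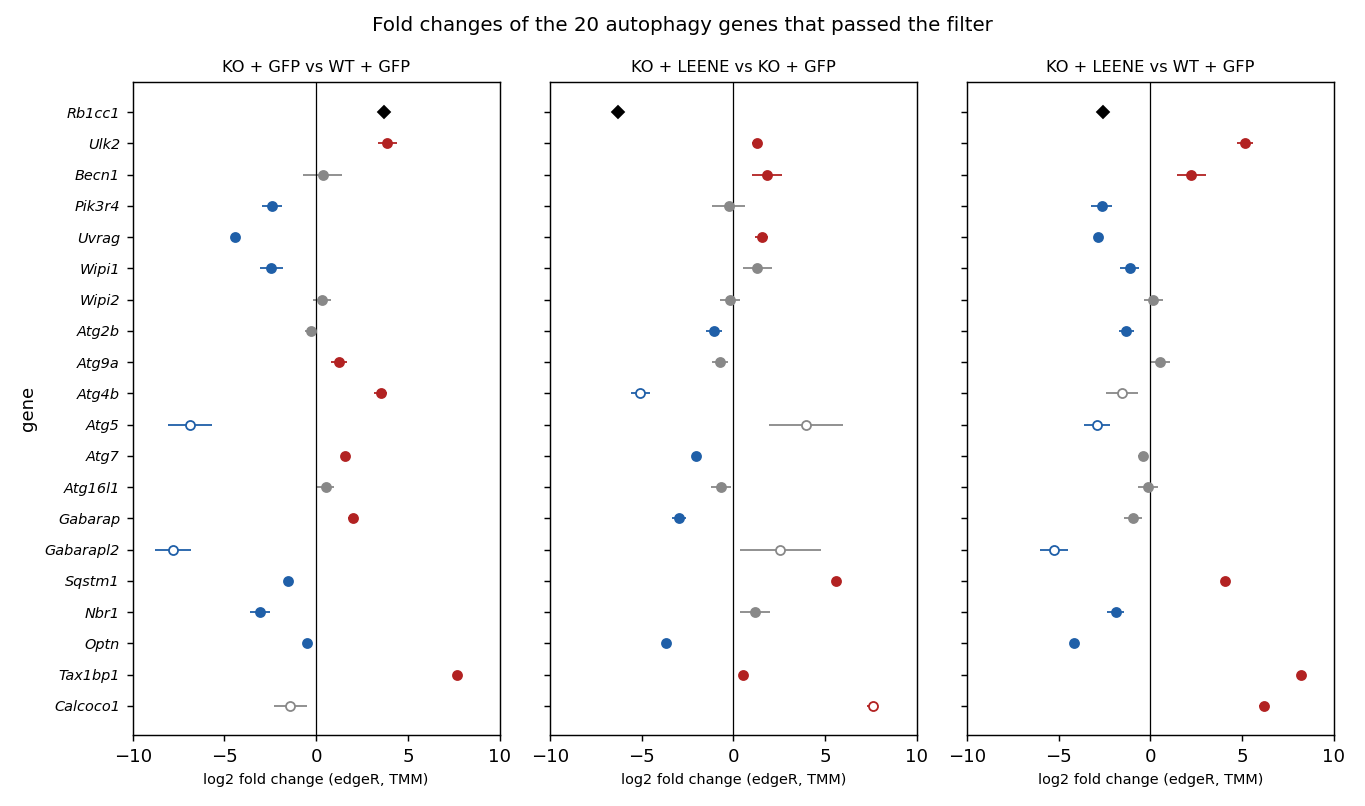
Log2 fold changes (edgeR with TMM, bars are SE) of the 20 autophagy genes that passed the filter, in the 3 comparisons, with genes called higher in red, called lower in blue and not called in gray. Open circles mark fits against a group with at most 3 reads in all, and the black diamond is Rb1cc1, shown without error or call. Tax1bp1 and Calcoco1 lie far to the right, and Optn to the left, in KO + LEENE against WT + GFP.

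Of the 7 nucleation genes tested, 3 were lower and 1 was higher in KO + GFP than WT + GFP, and the other 3 were not called, where 35.9% of all genes tested were lower and 34.2% higher. Uvrag encodes a partner of Beclin 1 in the PI3K complex (ENSMUSG00000035354, chromosome 7, 98885021 to 99141141). It had 361 and 284 reads for WT + GFP, 14 and 9 for KO + GFP, against 32 and 26 for KO + LEENE, which is 74.2 ± 7.63, 2.49 ± 0.0116 and 16.3 ± 2.51 CPM (SD, n = 2). Uvrag fell by 4.40 ± 0.220 (log2, SE) from WT + GFP to KO + GFP (adjusted P = 9.04e-76, edgeR) and rose by 1.54 ± 0.365 in KO + LEENE against KO + GFP (adjusted P = 5.03e-05, edgeR), or 2.70 with library size only. It stayed below WT + GFP in KO + LEENE, by -2.85 ± 0.182 (adjusted P = 1.06e-49, edgeR). Pik3r4, the kinase-like scaffold of the complex, had from 24 to 26 reads in WT + GFP, from 3 to 4 in KO + GFP and from 2 to 3 in KO + LEENE. Pik3r4 was lower than WT + GFP in both knockout groups, with log2 fold changes of -2.40 ± 0.530 and -2.66 ± 0.581 (SE). Becn1, which encodes Beclin 1, had from 1 to 3 reads in both GFP groups and from 6 to 7 in KO + LEENE. Its higher values in KO + LEENE (2.23 ± 0.799 against WT + GFP and 1.86 ± 0.812 against KO + GFP, log2, SE) rest on these few reads, and by DESeq2 their adjusted P values were 0.183 and 0.265. The first was also lost without the first WT + GFP library (log2 1.59) or the first KO + LEENE library, was 3.17 without the second WT + GFP library, and without the second KO + LEENE library Becn1 did not pass the filter. The second was lost when any of the other 5 libraries was left out (adjusted P from 0.0642 to 0.215, edgeR) and with the replicate block (0.101). The PI3K genes together took from 76.8 to 86.2 CPM in WT + GFP, from 4.46 to 4.69 in KO + GFP and from 22.3 to 26.5 in KO + LEENE, sums in which most reads were those of Uvrag.

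The genes that act on PI3P or supply membrane had few reads. Wipi1, a PI3P-binding protein, had from 17 to 20 reads in WT + GFP, from 2 to 3 in KO + GFP and from 5 to 6 in KO + LEENE, and was lower in KO + GFP than WT + GFP by -2.44 ± 0.614 (log2, SE, adjusted P = 0.000139, edgeR). In KO + LEENE against WT + GFP it had a log2 fold change of -1.12 (adjusted P = 0.0421, edgeR), a call lost by DESeq2 (adjusted P = 0.361), with the replicate block (0.0763) and when any library of these groups was left out (0.104 to 0.207). Atg2b, a lipid transfer protein, had from 28 to 37, from 18 to 23 and from 7 to 10 reads. It was lower in KO + LEENE than KO + GFP by -1.04 ± 0.436 (adjusted P = 0.0258, edgeR), and this call was lost by DESeq2 (0.271) and with library size only, where the value was 0.11. Leaving out either KO + GFP library (adjusted P = 0.0525 and 0.0723, edgeR) or the second KO + LEENE library (0.204) ended it too. Atg9a, the membrane protein of the vesicles that seed the structure, had from 8 to 11, from 11 to 24 and from 8 to 10 reads. Its log2 fold change in KO + GFP relative to WT + GFP was 1.26 ± 0.442 (adjusted P = 0.00703, edgeR), not called by DESeq2 (0.232), with library size only (0.0987), without the first KO + GFP library (0.196) or without the second WT + GFP library (0.0663). Wipi2, which recruits the conjugation machinery, had from 6 to 15 reads over all libraries and overlapping groups.

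In the conjugation machinery, 3 of the 6 genes tested were higher in KO + GFP than WT + GFP, 2 were lower and 1 was not called, beside 34.2% of all genes higher and 35.9% lower. The values of the 3 higher genes against KO + LEENE, which use the same KO + GFP libraries, are given beside. Atg7, the E1-like enzyme that activates both ATG12 and ATG8 (ENSMUSG00000030314, chromosome 6, 114643097 to 114860614), had 70 and 58 reads for WT + GFP, 184 and 110 for KO + GFP, against 35 and 27 for KO + LEENE. In CPM these were 14.7 ± 0.977, 31.6 ± 1.77 and 17.4 ± 3.32 (SD, n = 2), so the KO + GFP libraries stood above those of both other groups. Its log2 fold change was 1.59 ± 0.174 (SE, adjusted P = 1.12e-18, edgeR) in KO + GFP against WT + GFP and -2.02 ± 0.208 (adjusted P = 5.50e-21, edgeR) in KO + LEENE against KO + GFP, or -0.86 with library size only. Gabarap, an ATG8 protein, had 19 and 20, 79 and 41, and 6 and 7 reads, with log2 fold changes of 2.004 ± 0.277 and -2.96 ± 0.365 (SE) in these comparisons. Atg4b, the main protease that primes ATG8, had 8 and 6, 73 and 51, and 1 and 2 reads. It was higher in KO + GFP than WT + GFP by 3.51 ± 0.344 (log2, SE), or 4.4 with the libraries thinned to the smallest total. Its reads in KO + GFP were 35.5 times those in KO + LEENE after TMM scaling (95% counting interval 11.9 to 174.7, exact). In KO + LEENE against WT + GFP none of Atg7, Gabarap and Atg4b was called (adjusted P = 0.112, 0.0618 and 0.0967, edgeR), but Gabarap was called lower when only the 4 samples compared were fitted (log2 -1.03, adjusted P = 0.0287).

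A pair of conjugation genes were read almost only in WT + GFP. Gabarapl2, the ATG8 protein also called GATE-16, had 38 and 32 reads for WT + GFP, 0 and 0 for KO + GFP, against 0 and 1 for KO + LEENE. In KO + GFP it was lower by at least 17.7-fold, taking the floor of 3 reads over the group. Atg5, which forms the E3-like unit with ATG12 and ATG16L1, had 16 and 20 reads for WT + GFP, 0 and 0 for KO + GFP, against 2 and 1 for KO + LEENE, and was lower by at least 9.12-fold in KO + GFP (adjusted P = 2.29e-08, edgeR). Against KO + LEENE the reads of Atg5 in WT + GFP were 7.84 times as many after TMM scaling (95% counting interval 2.48 to 39.8, exact), a difference that DESeq2 did not call (adjusted P = 0.0808). Atg16l1, the third part of that unit, had from 8 to 14, 12 and 12, and from 5 to 8 reads and was called in no comparison.

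The cargo receptors were the step at which all 5 listed genes passed the filter, and their orders of groups differed. Sqstm1, encoding p62, which binds ubiquitinated cargo (ENSMUSG00000015837, chromosome 11, 50199366 to 50210827), had 125 and 98 reads for WT + GFP, 41 and 18 for KO + GFP, against 1245 and 1199 for KO + LEENE. These were 25.7 ± 2.70, 6.14 ± 1.66 and 686 ± 23.8 CPM (SD, n = 2), and the KO + LEENE libraries stood far above the rest. The log2 fold change of Sqstm1 was -1.52 ± 0.196 (SE, adjusted P = 6.18e-14, edgeR) in KO + GFP relative to WT + GFP, 5.59 ± 0.127 (adjusted P = 1.36e-247, edgeR) in KO + LEENE against KO + GFP, and 4.07 ± 0.0985 in KO + LEENE against WT + GFP.

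Calcoco1, a receptor for parts of the endoplasmic reticulum and Golgi (ENSMUSG00000023055, chromosome 15, 102706779 to 102722178), was also read mainly in KO + LEENE. It had 6 and 5 reads for WT + GFP, 3 and 0 for KO + GFP, against 277 and 260 for KO + LEENE, or 1.27 ± 0.0789, 0.268 ± 0.379 and 151 ± 7.97 CPM (SD, n = 2). Calcoco1 was higher in KO + LEENE than WT + GFP by 6.18 ± 0.246 (log2, SE, adjusted P = 2.26e-110, edgeR), and its reads were 208 times those in KO + GFP after TMM scaling (95% counting interval 70.8 to 1012, exact). The fitted log2 fold change against KO + GFP was 7.59 and moved to 6.86 without the second KO + GFP library, and without the first that group was left at 0 reads. Between the GFP groups it was not called (adjusted P = 0.151, edgeR), but it was called lower in KO + GFP with library size only (0.0494) and without the first KO + GFP library (0.0395), which held all 3 reads of its group.

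Tax1bp1, which links ubiquitin to ATG8 (ENSMUSG00000004535, chromosome 6, 52713729 to 52766780), was near the floor in WT + GFP and high in both knockout groups. It had 6 and 1 reads for WT + GFP, 692 and 435 for KO + GFP, against 668 and 726 for KO + LEENE, or 0.783 ± 0.764, 122 ± 2.49 and 391 ± 19.9 CPM (SD, n = 2). Against WT + GFP its log2 fold change was 7.66 ± 0.205 (SE, adjusted P = 2.17e-198, edgeR) in KO + GFP and 8.19 ± 0.193 in KO + LEENE. Without the first WT + GFP library these were 9.21 and 9.76, and without the second 6.95 and 7.49. Between the knockout groups it was 0.53 ± 0.0819 (adjusted P = 3.61e-10, edgeR), or 1.69 with library size only.

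Optn, encoding optineurin, a receptor for mitochondria and bacteria (ENSMUSG00000026672, chromosome 2, 5020642 to 5064051), ran the opposite way. It had 1294 and 1172 reads for WT + GFP, 833 and 521 for KO + GFP, against 51 and 39 for KO + LEENE, or 285 ± 0.956, 146 ± 3.52 and 25.3 ± 4.97 CPM (SD, n = 2). Every WT + GFP library stood above every KO + GFP library and those above KO + LEENE. The log2 fold change of Optn was -0.48 ± 0.0750 (SE, adjusted P = 8.03e-10, edgeR) in KO + GFP against WT + GFP, or -0.96 with library size only, and -3.68 ± 0.127 (adjusted P = 3.30e-138, edgeR) in KO + LEENE against KO + GFP. Nbr1, a receptor built like p62, had 30 and 28, 3 and 2, and 3 and 7 reads, and was lower than WT + GFP in KO + GFP by -3.08 ± 0.550 (log2, SE) and in KO + LEENE by -1.90 ± 0.475. The second of these was not called by DESeq2 (adjusted P = 0.0706) and was -2.56 without the second KO + LEENE library.

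**Figure D4:**
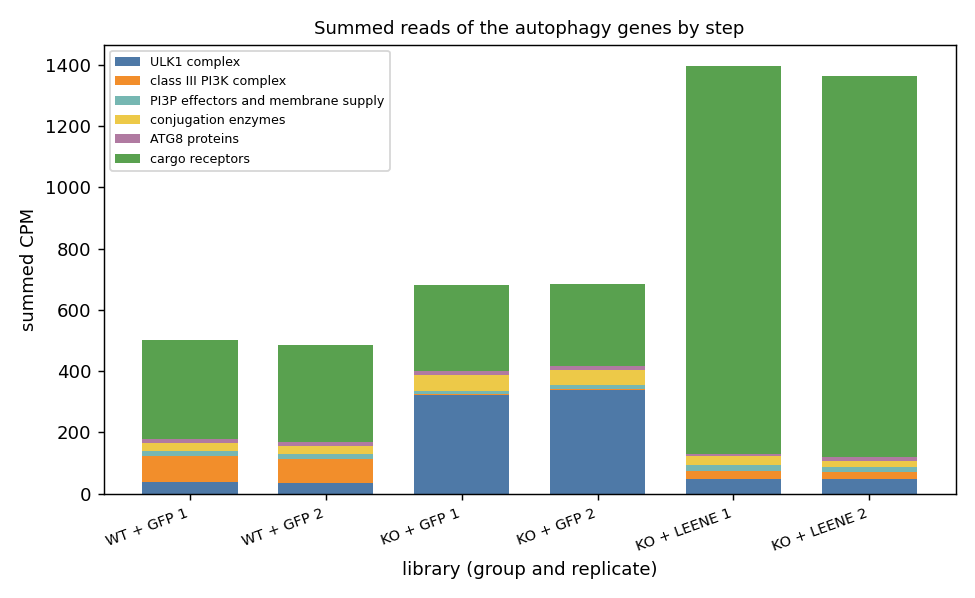
Summed CPM, without TMM scaling, of the 34 autophagy genes in each library (bars from 0), stacked by the part of the pathway to which they belong. The cargo receptors take from 269 to 322 CPM in the 4 GFP libraries and 1245 and 1267 in KO + LEENE, and the large share of the ULK1 complex in KO + GFP is Rb1cc1, which chose the list: its other 4 genes take 7.17 and 7.67 CPM there and 35.6 and 41.9 in KO + LEENE.

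Summed over the list, the order of the groups depended on the scale and on Rb1cc1, whose values chose the list. In CPM the 34 genes took from 484 to 500.4 for WT + GFP, from 682 to 684 for KO + GFP and from 1364 to 1396 for KO + LEENE. After TMM scaling they took from 511 to 526, from 965 to 1039 and from 903 to 927 CPM, with KO + GFP highest. Without Rb1cc1, KO + LEENE was highest on both scales, with from 1357 to 1386 CPM and, after TMM, from 899 to 920. The other groups changed places, with from 451 to 466 CPM for WT + GFP and from 355 to 369 for KO + GFP, but from 476 to 489 and from 500.1 to 562 after TMM. The cargo receptors were highest in KO + LEENE on both scales, at 825 and 841 CPM after TMM against from 333 to 428 in the GFP groups. The 14 conjugation genes took from 37.7 to 38.8 CPM for WT + GFP, from 60.4 to 65.1 for KO + GFP and from 32.4 to 34.4 for KO + LEENE, and were highest in KO + GFP after TMM too. The 10 nucleation genes took from 94.3 to 104.1 CPM for WT + GFP, from 15.5 to 17.9 for KO + GFP and from 37.4 to 48.6 for KO + LEENE. After TMM they were again highest in WT + GFP, while the knockout groups overlapped, at from 23.7 to 25.3 and from 24.8 to 32.2 CPM. These sums are of reads and were not tested.

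By position, Atg13 and Ambra1 lie 19557 bases apart on chromosome 2, and Becn1 and Nbr1 lie 249862 bases apart on chromosome 11. Becn1 and Nbr1 had different orders, with Nbr1 highest in WT + GFP and Becn1 in KO + LEENE. Exons of 9 members overlap those of another gene, which unstranded counting cannot separate: the share was 43.9% of exon bases for Becn1 (Cntd1), 31.8% for Atg9a (Gm29253), 28.3% for Gabarapl1, 17.6% for Uvrag, 17.3% for Sqstm1 and at most 3.8% for Rb1cc1, Map1lc3b, Optn and Tax1bp1. The overlapping genes had at most 19 reads in a library, a value reached by Ankzf1, which overlaps Atg9a and had 19 and 14 reads in KO + GFP and 0 or 1 elsewhere. Counts per gene do not show how many reads fell on the shared bases. The ATG8 genes resemble one another, and reads that align to several places are not in these counts.

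The other genes around the pathway were read from lists chosen by role. Their counts stand beside 34.2% of all genes called higher and 35.9% called lower in KO + GFP against WT + GFP, and 32.8% higher and 34.9% lower in KO + LEENE against KO + GFP. Of 27 further autophagosome genes (26 found), 15 were tested, with 5 higher and 5 lower in KO + GFP than WT + GFP and 5 higher and 5 lower in KO + LEENE than KO + GFP. Their median log2 fold changes were 0.39 and 0.14. Wdr45b, a PI3P-binding relative of the WIPI proteins, had 277 and 274 reads for WT + GFP, 2 and 1 for KO + GFP, against 42 and 58 for KO + LEENE, with WT + GFP highest and KO + GFP lowest, as for Uvrag. Vps18, a subunit of the tethers that bring autophagosomes to lysosomes, had 63 and 44, 827 and 558, and 7 and 8 reads, an order like that of Rb1cc1. Of 18 receptors of mitophagy and related kinds, 8 were tested, with 1 higher and 5 lower in KO + GFP (median -1.60) and 1 higher and 1 lower in KO + LEENE against KO + GFP (median -0.17). Among them, Sec62, a receptor for the endoplasmic reticulum, had 262 and 253, 962 and 618, and 22 and 27 reads, and Ccpg1, a receptor for the same cargo, had 125 and 138, 103 and 67, and 122 and 144.

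Of 33 genes for control by mTORC1 and AMPK, 13 were tested, with 3 higher and 8 lower in KO + GFP than WT + GFP (median -1.31) and 5 higher and 2 lower in KO + LEENE than KO + GFP (median -0.04). Mtor, the kinase that restrains the ULK1 complex, had 452 and 423 reads for WT + GFP, 11 and 12 for KO + GFP, against 30 and 33 for KO + LEENE. Prkaa1, a catalytic subunit of AMPK, which activates that complex, had 591 and 560, 5 and 1, and 2 and 2 reads. Both were thus read mainly in WT + GFP. Of 11 transcriptional regulators, 7 were tested, with 3 higher and 1 lower in KO + GFP (median 0.28) and 3 higher and 3 lower in KO + LEENE against KO + GFP (median -0.82). Hif1a, the factor of the response to low oxygen, had 10 and 10, 46 and 33, and 930 and 870 reads, the same order as Ulk2. Of 33 lysosomal genes (32 found), 21 were tested, with 6 higher and 10 lower in KO + GFP (median -0.73) and 7 higher and 6 lower in KO + LEENE against KO + GFP (median 0.14). Ctss, a protease of macrophage lysosomes, had 10 and 13, 415 and 275, and 1 and 0 reads, while Atp6ap2, of the proton pump, had no read in either GFP group and 129 and 142 reads in KO + LEENE.

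Cell type markers moved with the groups as well. The 15 endothelial markers took from 503 to 539 CPM in WT + GFP, from 2725 to 2887 in KO + GFP and from 342 to 351 in KO + LEENE. Of 12 tested, 4 were higher and 4 lower in KO + GFP than WT + GFP, where 34.2% of all genes were higher and 35.9% lower. In KO + LEENE against KO + GFP, 3 were higher and 7 lower, where 32.8% of all genes were higher and 34.9% lower. Most of the sum in KO + GFP was 1 gene, Emcn, the endothelial surface protein endomucin. Emcn had from 8 to 14 reads in WT + GFP, from 8648 to 12245 in KO + GFP and from 7 to 8 in KO + LEENE, and Tie1, a receptor of ECs, had from 1 to 9, from 366 to 588 and from 5 to 8. The VEGF receptors ran the other way between the GFP groups, with 808 and 708, 13 and 9, and 47 and 41 reads for Kdr, and 502 and 451, 7 and 3, and 5 and 5 for Flt1. The 11 macrophage markers took from 68.8 to 82.2, from 812 to 847 and from 16.8 to 19.8 CPM, highest in KO + GFP and lowest in KO + LEENE, and Cd68, Itgam, C1qa and C1qc had at most 3 reads in every library. Adgre1, the F4/80 antigen, had from 1 to 2, from 1060 to 1823 and from 1 to 3 reads, and Lyz2, lysozyme, had from 49 to 74, from 550 to 853 and from 1 to 2. Of the 6 macrophage markers tested, 4 were higher and 2 lower in KO + GFP than WT + GFP, where 34.2% of all genes were higher and 35.9% lower. The lower ones were Ptprc (CD45), with 176 and 172, 18 and 19, and 4 and 5 reads, and C1qb, with 32 and 37, 1 and 5, and 3 and 2. The 8 fibroblast markers took from 65.5 to 71.7, from 15852 to 15944 and from 84.1 to 84.9 CPM. In KO + GFP most of these were reads of the matrix genes Dcn, with from 53 to 62, from 40842 to 63633 and from 42 to 45 reads, and Col3a1, with from 17 to 29, from 12139 to 19017 and from 17 to 25. The 14 markers of muscle fibers took from 12.6 to 14.3, from 44.4 to 45.5 and from 65.3 to 69.5 CPM, with 7 of them at most 3 reads in every library, and the 9 mural markers took from 4.63 to 5.09, from 3.59 to 4.82 and from 39.5 to 51.4 CPM. Of the mural markers 2 were tested and 5 had at most 3 reads in every library, and most of the reads in KO + LEENE were those of Rgs5, a pericyte gene, with 2 and 4, 21 and 5, and 51 and 69. The part of cell makeup in the values of the autophagy genes was not tested.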

How the data were processed

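RNA-seq was run on CD144-enriched cells, with 2 libraries in each of 3 groups taken from the sample titles. Per the labels, cDNA was made with a 3′ single-cell kit without the droplet step. Per the file headers, the deposited read counts come from featureCounts 2.0.0 over exons of Ensembl release 84 (GRCm38), on uniquely aligned reads, without strand and without collapsing of molecular identifiers. Copies of 1 molecule thus count separately, and the intervals and floors cover error of counting only. The submitters' processing notes name STAR 2.5.4b. The study's methods name another build and TPM values, which were not used here. Names came from GENCODE vM39 by identifier, for 43465 of 47729 genes. In the lists, 3 genes had no match by name.

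The quasi-likelihood test of edgeR 4.0.16 (R 4.3.3) was run on the raw counts of all 6 libraries, with a mean per group, TMM and no covariate. The filter filterByExpr (minimum count 10, minimum total 15) left 8903 genes. P values were adjusted by Benjamini-Hochberg over all genes of a comparison, with a threshold of 0.05. The SE was the size of the log2 fold change divided by the square root of F. The script was checked on simulated counts. Against a group with 0 reads, folds are bounds at 3 reads over the group, and with 1 to 3 reads they are ratios with exact 95% intervals. With 2 libraries per group, no exact permutation test can pass 0.05.

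All 34 members are accounted for. Those with a mean of at least 20 CPM in a group are given in full, and of each other list, among genes with a mean of at least 20 CPM over the libraries, the 2 with the largest called change in KO + GFP against WT + GFP or KO + LEENE against KO + GFP are named. Gapdh, Pgk1, Cdh5, Erg, Pecam1, Vwf, Kdr, Flt1, Ptprc, C1qb, Rgs5 and the markers with at most 3 reads were named after their values were seen. A gene that this rule names is not reported here. The members and lists were chosen with earlier results of these data known.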

Additional observations from a re-analysis of the deposited data

How the results depend on the processing

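Counts of members called by edgeR (14, 11 and 13 in KO + GFP against WT + GFP, KO + LEENE against KO + GFP and KO + LEENE against WT + GFP) stayed within 1.5 times with other size factors, library size only, without mitochondrial genes, with only the 4 samples compared and with no filter. These counts leave out Rb1cc1. Requiring at least 10 reads in every sample gave 3, 3 and 2, with only 4 members left, of which Rb1cc1 was given no call. Thinning to the smallest total left 12, again with Rb1cc1 among them, and gave 9 calls in the first and 8 in the third comparison. DESeq2 called 8 in the third, and the cause was not tested. With the replicate number as a block 14, 10 and 12 were called, and it ended the calls of Becn1 in KO + LEENE against KO + GFP and of Wipi1 in KO + LEENE against WT + GFP. The numbers do not pair the samples by any label, and the deviations of same-numbered libraries correlated at 0.0455, 0.0142 and 0.02. Leaving out 1 library gave 13 to 14, 9 to 10 and 10 to 13 calls; a group left with 1 library was assumed to vary like the others.

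Of 814 values of single genes under the alternatives, 22 changed sign. With library size only these were 0.48 and 0.52 for Atg16l1 in KO + LEENE against KO + GFP and WT + GFP, 0.11 for Atg2b, 0.42 for Atg9a, 0.86 for Pik3r4 and 0.97 for Wipi2 in KO + LEENE against KO + GFP, 0.24 for Atg7 in KO + LEENE against WT + GFP, and -0.087 for Becn1 and -0.15 for Wipi2 in KO + GFP against WT + GFP. Of these, only the value of Atg2b had been called. Thinning gave 0.42 for Calcoco1 in KO + GFP against WT + GFP. Leaving out 1 library gave -0.58 to 0.37 for Atg16l1 in KO + LEENE against WT + GFP, -0.28 to 1.30 for Becn1 and -0.27 to 1.02 for Wipi2 in KO + GFP against WT + GFP, -0.74 to 0.17 for Pik3r4 and -0.78 to 0.44 for Wipi2 in KO + LEENE against KO + GFP, and -0.38 to 0.85 for Wipi2 in KO + LEENE against WT + GFP, and none of these was called with all libraries. The 14 members left out by the filter have no fold change here.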
